A study of Homo sapiens with 6 samples.

Results

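The untreated wild-type (WT) transcriptome of AID-DIvA cells was described from 3 RNA-seq samples, labelled replicates 3, 4 and 5, of 6 samples in the series. AID-DIvA cells derive from U2OS, a human osteosarcoma line, and carry the restriction enzyme AsiSI in a form that enters the nucleus after 4-hydroxytamoxifen (4OHT) and is degraded after auxin. The samples were labelled WT and untreated, with no agent named for them, and the other samples of the series, from ARID1A-KO cells, entered no value below. The members were the 57820 genes of the count tables, ranked by CPM, the reverse-strand count (the sense strand of this library type) as parts of 1000000 counts, and by TPM, which also divides by exonic length. The samples come from 1 line, and the study describes its RNA-seq as biological replicates from independent experiments.

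A tumour line keeps the RNAs that every dividing cell uses, such as those of ribosomes, glycolysis, the cytoskeleton and the respiratory chain, beside part of the programme of its tissue of origin. Osteosarcoma arises from bone-forming cells, whose programme is set by the transcription factors RUNX2, SP7 and DLX5 and ends in a matrix of type I collagen and mineral-binding proteins. U2OS is also known for maintaining its telomeres by recombination without telomerase.

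Reverse-strand counts ranged from 59864474 to 72413018 per sample, and 27880 to 29178 genes had at least 1 count. The limit that a count of 0 allows, 3 counts of the total, was 0.0414 to 0.0501 CPM. Values in each sample are given below in the order of replicates 3, 4 and 5, and an error is the SD over these samples (n = 3). Replicate 4 stood apart from the other two samples more often than they did, as described with the genes that varied, and what rests on it is given there with and without it. In bulk RNA, fewer cells with a transcript and less of it per cell cannot be told apart.

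Of all genes, 15754 had at least 1 TPM in every sample and are called expressed, and 24754 (42.8%) had 0 counts in every sample and are called silent. Protein coding genes, 12119 of which were expressed and 2091 (10.8%) silent, held 96.9% ± 0.106 of the counts (SD, n = 3). Long noncoding genes held 1.14% ± 0.0464 of the counts and pseudogenes 0.536% ± 0.0211. The silent genes were mostly of other classes, with 9204 pseudogenes, 6811 small noncoding genes and 5221 long noncoding genes. A further 1936 genes reached 1 TPM in some but not in all samples.

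Counts were concentrated in few genes. The 77 genes with a mean of at least 1000 TPM held 17.5% of the counts, the 1436 genes between 100 and 1000 TPM held 37.1%, and the 7794 genes between 10 and 100 TPM held 41.4%. The 100 genes of highest CPM took 21.1% ± 0.110 of the counts of a sample, and the 10 highest took 7.50% ± 0.0213. Of the 77 genes of at least 1000 TPM, 15 lie in the mitochondrial genome and 26 encode cytosolic ribosomal proteins.

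**Figure D1:**
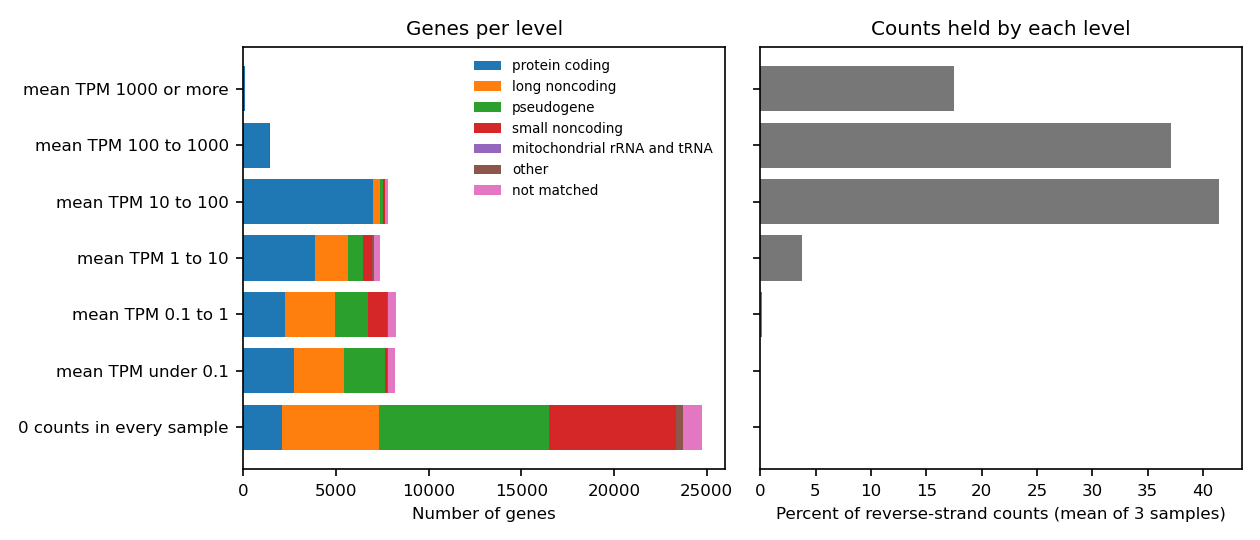
Number of genes (left, horizontal axis, coloured by annotated class) and percent of reverse-strand counts as the mean of 3 samples (right) for each level of mean TPM (vertical axis). The 24754 genes without a count form the longest bar on the left, and genes between 10 and 1000 TPM hold most of the counts on the right.

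The mitochondrial genome, which encodes subunits of the respiratory chain and its own rRNAs and tRNAs, led both rankings. It took 5.85% to 6.08% of the counts of a sample and, per exonic length, 22.2% to 23.2% of the TPM. By CPM the highest gene was MT-CO1, a catalytic subunit of cytochrome c oxidase, at 11175, 12048 and 11347 CPM. By TPM the highest was MT-CO2, another subunit of the same enzyme, at 42877, 45224 and 44857 TPM. The 3 samples stayed close for both, with a ratio of the highest to the lowest TMM CPM (CPM on library sizes normalized by the trimmed mean of M values) of 1.10 and 1.07.

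All 15 mitochondrial protein and rRNA genes of the list were expressed, between 1886 TPM for the small rRNA MT-RNR1 and 44319 TPM for MT-CO2. MT-CO3 followed at 35555 ± 1441 TPM, and MT-ATP6, a subunit of the ATP synthase, at 22549 ± 676 TPM. MT-ND6, the protein encoded on the other mitochondrial strand from the rest, had 4480.1, 3691 and 2703 TPM, lowest in replicate 5. It was the 1 gene of these 15 called replicate-variable, meaning that its spread passed a test against genes of like abundance, as did 1.14% of all genes tested. Its 695, 582 and 429 TMM CPM gave a call (adjusted p = 0.0206 in edgeR's goodness-of-fit test with Benjamini-Hochberg adjustment) that was lost without replicate 3 or replicate 5.

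Genes of glycolysis, chaperones and the cytoskeleton were among the highest nuclear genes. GAPDH, a glycolytic enzyme, had 11744, 10862 and 12014 TPM and was the second gene by CPM. ENO1 (enolase) had 3084 ± 138 TPM, TPI1 1840.3 ± 108 TPM and PKM (pyruvate kinase) 1468 ± 110.2 TPM. Of 24 glycolysis genes 19 were expressed, and those under 1 TPM were mostly the forms known from other tissues, with PGK2 and GAPDHS, which belong to sperm, at 0.00984 and 0.021 TPM, and PKLR at 0.013 TPM. The lactate dehydrogenase subunits LDHB and LDHA had 1423 ± 48.3 TPM and 657 ± 63.0 TPM.

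All 18 chaperones were expressed, from BAG3 at 61.8 ± 6.56 TPM to HSP90AB1, a cytosolic HSP90, at 5294 ± 222 TPM. HSPA8, the constitutive HSP70, had 2032, 2181 and 2144 TPM, and the heat-inducible HSPA1A had 142, 165 and 179.9 TPM. Of 23 genes of the actin cytoskeleton 22 were expressed, led by TMSB10, which binds actin monomers, at 7348 ± 375 TPM and by ACTB at 5024 ± 351 TPM. Smooth muscle ACTG2 was the exception at 0.00436 TPM. TMSB4X, the paralogue of TMSB10, had 816, 456 and 719.7 TPM, with replicate 4 below the other two samples.

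Tubulins showed the same division between general and restricted forms. TUBB and TUBA1B, the main beta and alpha tubulins of dividing cells, had 3717 ± 192 TPM and 2584 ± 110.5 TPM. TUBB3, a neuronal form, had 1.23 TPM, TUBA8 had 0.175 TPM and TUBB1, the form of platelets, was silent.

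**Figure D2:**
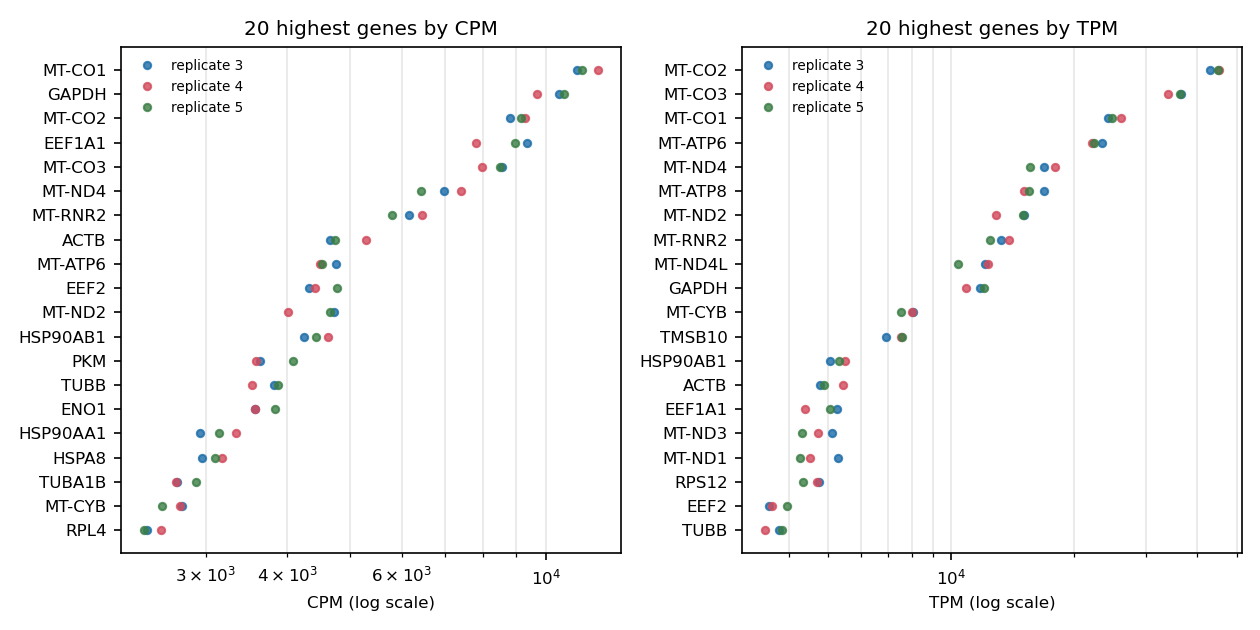
The 20 highest genes by CPM (left) and by TPM (right), 1 point per WT sample, on log axes. The 3 samples lie close together for every gene shown, and mitochondrial genes fill more of the TPM ranking than of the CPM ranking.

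Cytosolic ribosomal proteins took 6.02% ± 0.195 of the counts, and 78 of 79 were expressed, with a median of 732 TPM. RPS12 (ENSG00000112306.7, GRCh37 chromosome 6 from 133135580 to 133138703) was the highest at 4738, 4696 and 4334 TPM, followed by RPL8 at 3519.5 ± 154 TPM and RPLP1 at 2197 ± 72.9 TPM. RPL36A, overlapped by the read-through gene RPL36A-HNRNPH2 on the same strand and therefore uncertain, had 11.3 ± 1.04 TPM. Of the 79 genes, 39 overlap another annotated gene on the same strand, with a median of 584 TPM, against 889.6 TPM for the others, and the part of this overlap in the levels was not tested.

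Paralogues of ribosomal proteins with restricted use were lower, between 0.00557 TPM for RPL3L, a muscle form, and 137 TPM for RPS27L, and 5 of 6 were expressed. No ribosomal protein of either list was called replicate-variable, beside 1.14% of all genes tested. Among translation factors, EEF1A1, which brings aminoacyl-tRNA to the ribosome, had 5253, 4378 and 5059 TPM and EEF2, which moves the ribosome along the mRNA, 3578, 3655 and 3966 TPM. EEF1A2, the form of muscle and neurons, was also abundant at 371, 289 and 454 TPM, with replicate 4 the lowest. EEF1G and EIF4A1, which every cell uses, were listed at 0.0108 and 3.90 TPM, and these levels are uncertain. On the same strand EEF1G overlaps only MIR3654, at 0.315 TPM, and EIF4A1 overlaps 4 genes of at most 0.378 TPM, SENP3-EIF4A1 among them. Of the 15 translation factors, 10 overlap another gene on the same strand, with a median of 468 TPM, against 480 TPM for the others. The part of this overlap in the levels was not tested.

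mRNAs of ribosomal proteins and translation factors are known to begin with a C followed by a run of pyrimidines, the 5′ terminal oligopyrimidine (TOP) start, through which mTOR signalling controls their translation.
Of 63 ribosomal protein genes with a promoter window in RefSeq, 43 (68.3%) had such letters at the annotated start, counted as a C and at least 4 pyrimidines after it on the coding strand, against 5.29% of 11201 tested protein coding genes and 4.04% of all 27303 promoters.
The share was 34.7% (17 of 49) among genes of at least 1000 TPM, 10.9% (124 of 1140) between 100 and 1000 TPM and 4.76% (277 of 5824) between 10 and 100 TPM. These levels include the ribosomal protein genes, which were 26 of the 77 genes of at least 1000 TPM. The shares are therefore not independent of those above, and shares without ribosomal protein genes were not computed.
Only 65.3% of the silent protein coding genes had a window, so no share is given for them.
The windows of RPS12 (GRCh38.p14, chr6:132814319-132814618, plus strand) and EEF1A1 (GRCh38.p14, chr6:73520983-73521282, minus strand) are shown because these genes were the highest of their groups by TPM, each of 300 bases and with 50 of them from the start on, and the pyrimidine run at the start in capitals.

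RPS12: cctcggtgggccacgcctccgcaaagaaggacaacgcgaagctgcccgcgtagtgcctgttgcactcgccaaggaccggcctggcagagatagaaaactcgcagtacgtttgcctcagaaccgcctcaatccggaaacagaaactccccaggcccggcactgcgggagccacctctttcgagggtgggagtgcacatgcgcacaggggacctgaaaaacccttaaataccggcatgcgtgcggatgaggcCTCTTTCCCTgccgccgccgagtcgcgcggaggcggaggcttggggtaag
EEF1A1: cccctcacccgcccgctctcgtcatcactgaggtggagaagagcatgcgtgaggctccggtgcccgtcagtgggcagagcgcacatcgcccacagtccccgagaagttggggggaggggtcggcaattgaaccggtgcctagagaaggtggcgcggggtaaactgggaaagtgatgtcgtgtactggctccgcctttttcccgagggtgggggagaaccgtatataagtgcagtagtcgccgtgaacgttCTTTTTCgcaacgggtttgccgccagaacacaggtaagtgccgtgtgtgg

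The rankings by CPM and by TPM differed with the length of the gene. Of the 100 highest genes by CPM, 67 were among the 100 highest by TPM, and the median exonic length was 3847.5 bases in the first list and 2354.5 bases in the second. DST, which links intermediate filaments to other cytoskeletal fibres, was at rank 180 by CPM and at rank 3282 by TPM. MACF1, another linker of actin and microtubules with 36470 exonic bases, fell from rank 363 to rank 4457. The largest moves the other way were those of very short RNAs, such as the mitochondrial tRNA gene MT-TW, at rank 9148 by CPM and rank 142 by TPM, and the small nucleolar RNA gene SNORD104, at ranks 11302 and 495.

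Among long noncoding RNAs, NEAT1, the scaffold of nuclear paraspeckles, was the highest by CPM with 728, 612 and 485 CPM, followed by MALAT1, a resident of nuclear speckles, with 358, 276 and 267 CPM. Per length, the snoRNA hosts C17orf76-AS1 (now SNHG29) and SNHG1 were higher, with 249 ± 18.6 TPM and 199.5 ± 21.9 TPM, against 89.2 ± 17.6 TPM for NEAT1. LINC00657 (now NORAD), which binds PUMILIO proteins, had 137 ± 13.9 TPM. The imprinted H19 had 3.79 ± 1.10 TPM, HOTAIR 3.49 ± 0.146 TPM and MEG3 0.00105 TPM. No member of this list of 12 was called replicate-variable, beside 1.14% of all genes tested. Of the 11 tested, 8 were lowest in replicate 5, as were 5836 of 18339 genes tested.

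RNAs without a poly(A) tail were few. The list of 25 held 0.00380% ± 0.00105 of the counts, with 11 expressed and 4 silent, among them TERC, the RNA of telomerase, and the Y RNAs RNY1 and RNY3. RN7SK, which holds the elongation factor P-TEFb, had 6.94 ± 0.537 TPM. RN7SL1 and RN7SL2, the near-identical RNAs of the signal recognition particle, had 150.2, 168 and 85.1 TPM and 167, 214 and 91.4 TPM, lowest in replicate 5 for both. Reads can be shared between these copies, so the value of each alone is uncertain. The labels give the molecule as poly(A) RNA, whereas the protocol names a kit for total RNA.

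The pseudogenes of highest CPM were also uncertain, as reads of near-identical genes can be assigned to them. MTATP6P1 (ENSG00000248527.1, GRCh37 chromosome 1 from 569076 to 569756), a nuclear copy of mitochondrial sequence, had 2305, 2351 and 2225 TPM beside 22549 TPM for MT-ATP6. RPS2P46, a copy of RPS2, had 652, 656 and 623 TPM beside 1328 TPM for RPS2.

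Gene families that belong to sensory organs, skin appendages and immunity made up part of the silent protein coding class. Of 381 olfactory receptors, 294 (77.2%) were silent and 4 expressed. Of 92 keratin-associated proteins, which bind hair keratins, 67 were silent, and of 17 type I interferons 13 were silent and none reached 1 TPM in every sample, with IFNE the highest at 0.418 TPM. Beta defensins had 26 of 39 silent and bitter taste receptors 8 of 24. Families used in every cell stood at the other end, with 46 of 50 proteasome subunits and 73 of 76 mitochondrial ribosomal proteins expressed. Zinc finger genes named ZNF were broadly expressed (402 of 508) at a low median of 6.48 TPM.

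HOX genes, which record position along the body axis, had 27 of 39 members expressed and 2 silent, with HOXB9 the highest at 67.4 ± 10.1 TPM. Replication-dependent histone genes, whose main transcripts end without a poly(A) tail, had 15 of 36 expressed, and HIST1H2BK (now H2BC12) reached 309 ± 58.9 TPM.

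Markers of the osteoblast lineage were expressed in part. Of 14 genes 6 reached 1 TPM in every sample. SPARC, a collagen-binding matrix protein, had 539.6, 538 and 467 TPM, and COL1A1, a chain of type I collagen, had 146, 149 and 153 TPM. COL1A2, the partner chain of COL1A1 in type I collagen, had 0.0804, 0.0578 and 0.0653 TPM. RUNX2, a transcription factor of the lineage, had 5.999 ± 0.631 TPM, while SP7, which acts after RUNX2, had 0.0242 TPM and DLX5 0.0081 TPM. The late markers IBSP, DMP1, SOST and PHEX were under 1 TPM, as was BGLAP, at 0.362 TPM, which overlaps the read-through gene PMF1-BGLAP on the same strand and is uncertain.

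The members of this list that varied were SPP1 and ALPL. SPP1 (osteopontin) had 59.6, 37.7 and 76.8 TPM, with replicate 4 the lowest, and ALPL, the bone alkaline phosphatase, had 6.33, 12.4 and 12.8 TPM, with replicate 3 the lowest. In edgeR's goodness-of-fit test with Benjamini-Hochberg adjustment, the adjusted p was 0.000159 for SPP1 and 0.0351 for ALPL, the call of SPP1 was lost without replicate 4 or replicate 5 and that of ALPL without replicate 3 or replicate 5.

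Mesenchymal genes were expressed more fully, 11 of 14. VIM (vimentin) had 1443, 1506 and 1719 TPM, CDH2 (N-cadherin) 112 ± 6.58 TPM, THY1 98.0 ± 13.6 TPM and CD44 85.7 ± 15.5 TPM. TWIST1, a transcription factor of mesenchyme, and DCN (decorin) were exceptions at 0.0167 and 0.00601 TPM. Among epithelial markers, the keratins of simple epithelia KRT18 and KRT8 had 494 ± 35.9 TPM and 177 ± 16.7 TPM, whereas CDH1 (E-cadherin) had 0.67 TPM and the epithelial regulators ESRP1 and GRHL2 0.338 and 0.0188 TPM.

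Most markers of other tissues were under 1 TPM, with 6 of 7 chondrocyte, 5 of 6 adipocyte, 5 of 8 skeletal muscle, 5 of 6 hepatocyte and 4 of 8 neural genes. SOX9, the regulator of cartilage, had 54.8 ± 4.06 TPM, but the 6 other chondrocyte genes, COL2A1 and ACAN among them, were under 1 TPM. PPARG, the regulator of fat cells, had 21.0 ± 3.44 TPM, with the 5 other adipocyte genes under 1 TPM and LEP silent. PAX7, a factor of muscle stem cells, had 6.27 ± 0.765 TPM. MYH3 and ACTA1 were also expressed, at 1.46 and 1.93 TPM, and MYOG was silent. SERPINA1, an antitrypsin made by liver, had 71.6 ± 15.4 TPM, beside 0.0688 TPM for ALB and 0 for TTR. OLIG2, a factor of oligodendrocytes, had 10.6 ± 0.893 TPM, and the neuronal genes SYP and STMN2 had 6.31 and 1.55 TPM, beside 0.00503 TPM for SOX10.

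Blood cell markers, which would show admixed leukocytes or erythroid cells, were all under 1 TPM (9 of 9), with PTPRC the highest at 0.753 ± 0.199 TPM and HBB silent. Endothelial and melanocyte markers reached at most 1.13 TPM (TEK) and 0.6 TPM (PMEL). MMP9 and CTSK, which osteoclasts secrete but other cells also make, had 6.21 ± 5.19 TPM and 2.58 ± 0.549 TPM, while OCSTAMP was silent and CALCR at 0.0525 TPM.

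**Figure D3:**
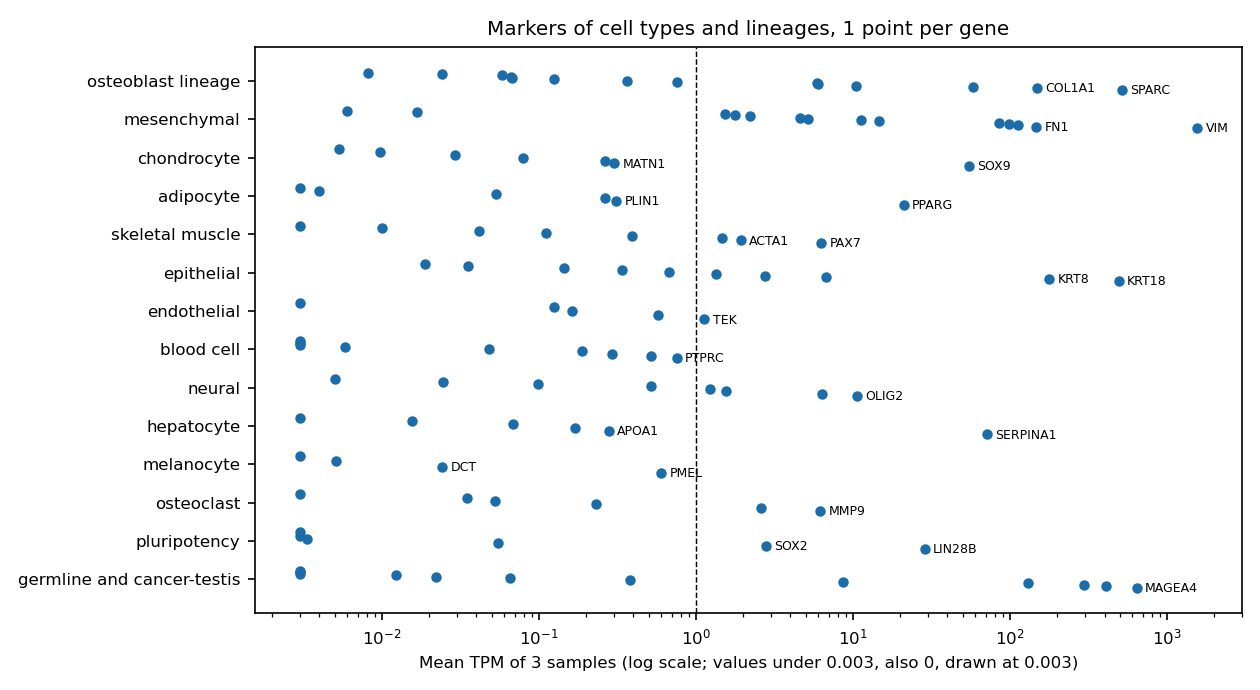
Mean TPM of 3 WT samples (horizontal log axis, values under 0.003 drawn at 0.003) of each gene in the marker lists (rows), with the highest gene of a row named and the line at 1 TPM dashed. Osteoblast, mesenchymal, epithelial and cancer-testis genes reach above 100 TPM, and blood cell and melanocyte markers all lie left of the line.

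Cancer-testis antigens, genes normally kept to the germline by DNA methylation and often active in tumours, were split between high and silent genes. MAGEA4 (ENSG00000147381.7, GRCh37 chromosome X from 151080981 to 151093642) had 588, 712 and 630.0 TPM. PRAME had 426, 363 and 445 TPM, MAGEA1 286, 308 and 300.1 TPM and MAGEC1 118, 144 and 131 TPM. MAGEC2, CTAG1B and the germ cell RNA-binding protein gene DAZL were silent, and the germ cell markers DDX4 and SYCP3 had 0.0124 and 0.065 TPM. Of the 12 genes 5 were expressed, and none was called replicate-variable, beside 1.14% of all genes tested. In the MAGE-A family as a whole 7 of 11 genes were expressed.

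LIN28B, which blocks let-7 maturation and is shared by stem cells and tumours, had 28.2, 28.4 and 29.3 TPM, while POU5F1 and NANOG, the core pluripotency factors, were silent and SOX2 had 2.80 ± 0.554 TPM. Among genes of telomere maintenance, TERT, the catalytic subunit of telomerase, had 0, 0.00998 and 0 TPM, and DKC1, which binds telomerase RNA and other H/ACA RNAs, 135 ± 7.76 TPM. The shelterin genes TERF2, TINF2, TERF1 and POT1 had 28.9, 28.8, 14.8 and 8.41 TPM, and the chromatin factors ATRX and DAXX 33.7 and 86.5 TPM. RTEL1, a helicase, was listed at 0.257 TPM and overlaps RTEL1-TNFRSF6B on the same strand, so its level is uncertain.

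Genes of the cell cycle were expressed throughout. All 18 mitosis genes lay between 20.02 TPM for CENPE, a kinetochore motor, and 807 TPM for CDC20, which activates the anaphase-promoting complex. All 20 replication genes lay between 20.2 TPM for CCNE2 and 574 TPM for TYMS, the thymidylate synthase, with PCNA, the sliding clamp, at 541 ± 35.6 TPM. All 15 p53 targets were also expressed, led by CDKN1A, the p21 inhibitor of cyclin-dependent kinases, at 309.5, 328 and 442 TPM and BAX at 201 ± 19.1 TPM. MYC had 242, 233 and 239.7 TPM and was the highest of 22 immediate early genes, while FOS and FOSB, which respond to serum within minutes, had 3.05 ± 0.714 TPM and 0.406 TPM.

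Targets of the mechanosensitive coactivator YAP were high, with CYR61 (CCN1) at 972 ± 78.3 TPM, CTGF (CCN2) at 885 ± 349 TPM and ANKRD1 at 876 ± 59.2 TPM. Cholesterol synthesis was expressed in full (20 of 20), from CYP51A1 at 3.84 TPM to HMGCS1, which makes HMG-CoA, at 255 TPM. Of hypoxia targets 16 of 18 were expressed, with the glucose transporter SLC2A1 at 69.3 ± 2.05 TPM, but CA9, which depends strongly on hypoxia-inducible factor, had 0.525 TPM. ATF4, the transcription factor of the amino acid and integrated stress response, had 499.98 ± 75.1 TPM, beside 67.2 TPM for its target ASNS and 0.338 TPM for STC2.

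ARID1A, the subunit of the BAF chromatin remodeller that the series examines (ENSG00000117713.13, GRCh37 chromosome 1 from 27022524 to 27108595), had 59.6, 62.8 and 62.2 TPM. Its paralogue ARID1B had 12.9 ± 0.512 TPM, ARID2, of the related PBAF complex, 16.3 ± 1.14 TPM, and the ATPases SMARCA4 and SMARCA2 had 61.4 ± 3.67 TPM and 18.7 ± 1.46 TPM. HDAC1, a histone deacetylase, and RSF1, a chromatin remodeller, had 101 ± 4.29 TPM and 13.6 ± 0.811 TPM. XRCC6 (Ku70), which binds broken DNA ends, was the highest of the 18 genes of this group at 735 ± 20.4 TPM, followed by the cohesin subunit RAD21 at 225 ± 21.9 TPM. BRCA1, which acts in homologous recombination (HR), had 42.0 ± 2.73 TPM and XRCC4, which acts in non-homologous end joining (NHEJ), 31.1 ± 0.919 TPM. CGAS, a sensor of cytosolic DNA, and TMEM173 (STING), of the same pathway, were the lowest. CGAS had 6.99, 7.23 and 7.57 TPM and TMEM173 6.45 ± 2.01 TPM.

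All 18 of these genes were expressed and none was called replicate-variable, beside 1.14% of all genes tested. Their median ratio of the highest to the lowest TMM CPM was 1.11, beside 1.19 for all genes tested. Of the genes that the study places near AsiSI sites, 23 of 25 close to HR-prone sites were expressed, with a median of 17.3 TPM, and 18 of 25 close to NHEJ-prone sites, with a median of 10.5 TPM. None of the genes of either group was called replicate-variable, in 25 and 20 tested. At 1.14% of all genes tested, groups as small as these 3 would seldom hold a call.

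The samples agreed closely across genes, with a Pearson correlation of log2(TPM + 1) of 0.995 to 0.996 between pairs, a description over genes that are not independent. Of 18339 genes tested, 10661 (58.1%) differed among the samples by more than counting reads gives, in edgeR's goodness-of-fit test with Benjamini-Hochberg adjustment at a dispersion of 0. Without replicate 4 this number was 6871 of 18479, and it was 7754 of 18393 without replicate 3 and 7887 of 18691 without replicate 5. The common biological coefficient of variation was 0.114, and the median gene had a coefficient of variation of 9.14%. Against genes of like abundance, at the trended dispersion, 209 genes (1.14%) had an adjusted p under 0.05 in the same test and are called replicate-variable, with 1069 at an unadjusted p under 0.05. Their median ratio was 2.42, and 133 of them had a ratio of at least 2, as did 797 of all genes tested.

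Replicate 4 stood furthest from the other samples in most of the 209 genes, as the low sample in 100 and the high sample in 43. These were 47.8% and 20.6% of the 209 genes, beside 19.2% and 17.8% of all genes tested. Replicate 3 stood furthest as the low sample in 36 (17.2%) and the high sample in 6 (2.87%), beside 16.4% and 14.6% of all genes tested. Replicate 5 stood furthest as the high sample in 21 (10%) and the low sample in 3 (1.44%), beside 15.6% and 16.5% of all genes tested. Each gene is counted for its furthest sample only, so a gene set apart by a high replicate 4 can also be lowest in replicate 3. Of the called genes 186 were protein coding, 14 long noncoding and 5 pseudogenes. Without replicate 4, 41 of the 209 genes were still called, 112 without replicate 3 and 132 without replicate 5. Other called genes named below were chosen after their values were seen.

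**Figure D4:**
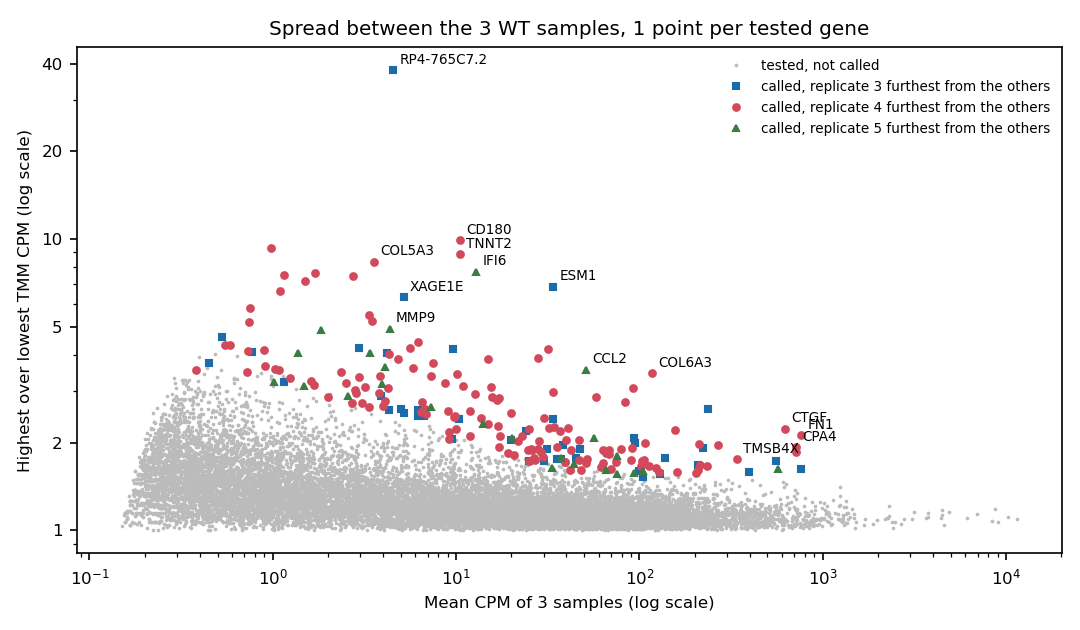
Ratio of the highest to the lowest TMM CPM among the 3 WT samples (vertical log axis) against mean CPM (horizontal log axis), 1 point per tested gene. Grey points were not called, and coloured points are the 209 replicate-variable genes by the sample furthest from the others, with replicate 4 the most frequent. Of the called genes at 1 CPM or more, RP4-765C7.2 has the highest ratio (38.1).

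Genes of the extracellular matrix were prominent among those set apart by a high replicate 4 or a low replicate 3. Of 25 tested matrix genes 9 (36.0%) were called, beside 1.14% of all genes tested. A high replicate 4 set 4 of them apart, a low replicate 3 set 4 apart and a low replicate 4 set 1 (COL3A1) apart. COL6A3 (ENSG00000163359.11, GRCh37 chromosome 2 from 238232646 to 238323018), a chain of the microfibrillar type VI collagen, had 61.5, 213 and 79.1 TMM CPM. FN1 (fibronectin), to which cells attach through integrins, had 519, 1101 and 675 TMM CPM. Replicate 4 was the highest for both and replicate 3 the lowest, with replicate 5 closer to replicate 3. The basement membrane collagen COL4A1 had 192, 376 and 242 TMM CPM and THBS1 (thrombospondin 1) 528, 980.2 and 653 TMM CPM.

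COL4A2, TNC (tenascin C) and TGFBI were instead set apart by a low replicate 3. TNC had 375, 649 and 639 TMM CPM. In edgeR's goodness-of-fit test with Benjamini-Hochberg adjustment, the adjusted p was 3.55e-26 for COL6A3, 1.65e-07 for FN1 and 6.75e-06 for COL4A1. Of the 9 matrix calls, 4 were kept without replicate 3, 1 without replicate 4 and 9 without replicate 5. All were called for replicate 3 or replicate 4 standing apart, so the losses without these samples follow in part from how the genes were chosen. SPARC and COL1A1, matrix genes that the osteoblast list also holds, did not pass, with ratios of 1.15 and 1.07.

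CTGF (CCN2), a target of YAP and of TGF-beta, had 397, 888 and 578 TMM CPM, highest in replicate 4 (adjusted p = 3.45e-08 in edgeR's goodness-of-fit test with Benjamini-Hochberg adjustment). CTGF was the 1 gene called of 12 YAP targets, beside 1.14% of all genes tested. Of the 12, 7 were highest in replicate 4 and 7 lowest in replicate 3, beside 6486 and 6074 of 18339 genes tested. CYR61 had 639.7, 754 and 750.1 TMM CPM and ANKRD1 475, 527 and 556 TMM CPM, and neither passed. ESM1 (ENSG00000164283.8, GRCh37 chromosome 5 from 54273692 to 54318499), a secreted proteoglycan, had 9.50, 65.3 and 26.7 TMM CPM, lowest in replicate 3 and highest in replicate 4, a ratio of 6.88. COL5A3, a chain of type V collagen, had 1.09, 8.63 and 1.03 TMM CPM, high in replicate 4 alone.

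Among keratins, 4 of 16 tested genes were called, and 1 of 3 tested keratin-associated proteins, beside 1.14% of all genes tested. KRTAP2-3, a keratin-associated protein and the highest of that mostly silent family, had 13.98, 58.8 and 22.9 TMM CPM. The hair keratin KRT34 had 48.4, 149 and 79.1 TMM CPM, KRT75, of the hair follicle, 101, 222 and 145 TMM CPM and KRT79 0.471, 3.596 and 1.05 TMM CPM. For these keratin-related genes, replicate 3 was the lowest and replicate 5 lay between. S100A2, a calcium-binding protein of basal epithelium, had 174, 292 and 175 TMM CPM, with replicates 3 and 5 alike. Of the 7 tested epithelial markers, none was highest in replicate 4 and 5 were lowest in it, beside 6486 and 6429 of 18339 genes tested. The secretory granule gene SCG5 had 12.8, 50.1 and 21.0 TMM CPM and the synaptic vesicle gene SYP 6.29, 15.5 and 7.71 TMM CPM. CSAG2, a cancer-testis gene, and KCNJ15, a potassium channel, had 1.30, 7.12 and 1.59 TMM CPM and 2.53, 11.3 and 4.87 TMM CPM.

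The site TGACTCA, which AP-1 is known to bind, was searched in both strands of the promoter windows.
It was present in 6 of 33 windows (18.2%) of protein coding genes set apart by a high replicate 4. The share was 3.21% in tested protein coding genes and 4.90% in all promoters, a description of letters and not of binding. Among all replicate-variable protein coding genes it was in 13 of 141 windows (9.22%). Genes set apart by a low replicate 3 had it in 3 of 24, by a low replicate 4 in 4 of 64 and by a high replicate 5 in 0 of 17. Only 70.6% and 72.7% of the genes with a low replicate 3 or a low replicate 4 had a window.
S100A2 is shown as an example (GRCh38.p14, chr1:153565795-153566094, minus strand), with the match in capitals.

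S100A2: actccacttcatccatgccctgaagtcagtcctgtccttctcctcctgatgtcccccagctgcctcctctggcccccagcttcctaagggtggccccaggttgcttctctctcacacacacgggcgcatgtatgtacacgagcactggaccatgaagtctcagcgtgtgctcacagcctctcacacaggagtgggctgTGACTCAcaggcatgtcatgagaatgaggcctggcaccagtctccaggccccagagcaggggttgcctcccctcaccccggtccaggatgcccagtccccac

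The largest group was that of the 100 genes called for a low replicate 4, and those of largest ratio are given first. CD180 (ENSG00000134061.4, GRCh37 chromosome 5 from 66478103 to 66492627), a Toll-like receptor homologue, had 19.3, 1.94 and 10.4 TMM CPM, a ratio of 9.94. TNNT2, the cardiac troponin T, had 17.9, 2.02 and 11.4 TMM CPM, and ANKRD2, a titin-binding protein of muscle, 5.64, 1.08 and 3.65 TMM CPM. Replicate 3 was the highest and replicate 5 intermediate for these genes. TRIM29 had 8.18, 1.94 and 6.71 TMM CPM and FAM65B 5.19, 0.692 and 2.28 TMM CPM. Among long noncoding genes, LINC00578 had 2.18, 0.304 and 1.996 TMM CPM, AC006262.5 had 1.43, 0.235 and 1.78 TMM CPM and CTD-2354A18.1 had 0.972, 0.304 and 2.01 TMM CPM.

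Abundant genes were also in this group. CPA4, a secreted carboxypeptidase, had 912, 473 and 765 TMM CPM, and CAV1, the coat protein of caveolae, 264, 165 and 274 TMM CPM. MT1E, a metallothionein, had 40.4, 15.2 and 45.3 TMM CPM, with replicates 3 and 5 alike. Some matrix genes were lowest in replicate 4 too, although COL6A3 and FN1 were highest there. COL3A1, a fibrillar collagen, had 27.3, 13.3 and 27.9 TMM CPM. MFAP5, a microfibril protein, had 24.4, 10.1 and 25.4 TMM CPM, and TIMP3, an inhibitor of metalloproteinases, 79.8, 42.4 and 68.7 TMM CPM. In edgeR's goodness-of-fit test with Benjamini-Hochberg adjustment, the adjusted p was 1.30e-22 for CD180, 1.26e-20 for TNNT2, 2.92e-05 for CPA4 and 6.58e-12 for MT1E. Without replicate 4, 4 of the 100 genes were still called, and 1 of the 43 genes set apart by a high replicate 4. Both groups were defined by replicate 4 standing apart, so this loss follows largely from how they were chosen.

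Of the 36 genes set apart by a low replicate 3, RP4-765C7.2 (ENSG00000213058.3, GRCh37 chromosome 1 from 178380751 to 178381107), a pseudogene of 357 exonic bases whose reads may be shared with its parent gene, had the widest ratio of all called genes at 1 CPM or more, with 0.192, 7.29 and 6.19 TMM CPM. Replicate 3 had 13 counts, against 527 and 366 in replicates 4 and 5. XAGE1E, a cancer-testis gene with near-identical copies and therefore uncertain, had 1.28, 6.20 and 8.12 TMM CPM. BCL2A1, an inhibitor of apoptosis, had 1.19, 5.04 and 2.64 TMM CPM, and the immediate early factor EGR1 26.3, 40.01 and 46.1 TMM CPM. TCN1, which binds vitamin B12, was lowest in replicate 5, with 2.39, 2.56 and 0.524 TMM CPM.

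Interferon-stimulated genes, which are switched on by transcription factors after interferon reaches the cell, were low, and most were highest in replicate 5. Of 22 genes 13 were expressed, with IRF7 silent. Of 17 tested 9 (52.9%) were called replicate-variable, beside 1.14% of all genes tested. IFI6 (ENSG00000126709.10, GRCh37 chromosome 1 from 27992572 to 27998729), a mitochondrial protein of this response, had 3.93, 4.56 and 30.4 TMM CPM, with replicates 3 and 4 alike and replicate 5 above them. ISG15, a ubiquitin-like modifier, had 5.07, 4.65 and 12.3 TMM CPM, and IFI27 1.97, 1.63 and 6.63 TMM CPM. Replicates 3 and 4 lay close together for these as well. OAS1, a synthetase that senses viral RNA, had 0.648, 0.872 and 2.64 TMM CPM, and its relative OAS3 had 16.1, 14.6 and 30.3 TMM CPM. IFI44 had 2.12, 1.45 and 4.19 TMM CPM and IFI44L 0.722, 0.553 and 1.79 TMM CPM. For these 7 genes replicate 5 was the highest.

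IFIT1 and IFIT2, which bind foreign RNA, were instead called for a low replicate 4, with 5.30, 1.56 and 4.62 TMM CPM and 4.11, 1.62 and 4.30 TMM CPM. In edgeR's goodness-of-fit test with Benjamini-Hochberg adjustment, the adjusted p was 3.70e-34 for IFI6, 2.29e-06 for IFI27, 0.000228 for ISG15 and 0.000236 for OAS3. Of the 9 calls, 6 were kept without replicate 3, 5 without replicate 4 and 1 without replicate 5. As 7 of the 9 were called for a high replicate 5, the loss without it follows largely from how they were chosen. Across the list, 14 of 17 tested genes were highest in replicate 5, beside 5958 of 18339 genes tested, and 13 of 17 were lowest in replicate 4. The summed level of the list was 173, 148 and 335 TPM, and no type I interferon gene had a mean above 0.418 TPM.

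The interferon-stimulated response element was searched as GAAA, any 2 bases and GAAA again, in both strands of the promoter windows, since the factors of this response are known to bind such repeats.
It was present in 10 of 17 windows (58.8%) of protein coding genes set apart by a high replicate 5. These 21 genes include 7 of the interferon-stimulated list, known for this element, so the share is no independent support. It was in none of the 33 windows of genes set apart by a high replicate 4. Genes set apart by a low replicate 3 had it in 1 of 24 and by a low replicate 4 in 2 of 64. Only 70.6% and 72.7% of the genes of these last groups had a window. The share was 2.78% in tested protein coding genes and 3.66% in all promoters.
The windows of IFI6 (GRCh38.p14, chr1:27672143-27672442, minus strand), ISG15 (GRCh38.p14, chr1:1013247-1013546, plus strand) and IFI27 (GRCh38.p14, chr14:94110486-94110785, plus strand) are shown because these genes were high in replicate 5, with each match, on either strand, in capitals.
IFI6 has 3 matches and ISG15 and IFI27 have 2 each, overlapping in ISG15.
The window of OAS1 had no match, which says only that these letters are not in it.

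IFI6: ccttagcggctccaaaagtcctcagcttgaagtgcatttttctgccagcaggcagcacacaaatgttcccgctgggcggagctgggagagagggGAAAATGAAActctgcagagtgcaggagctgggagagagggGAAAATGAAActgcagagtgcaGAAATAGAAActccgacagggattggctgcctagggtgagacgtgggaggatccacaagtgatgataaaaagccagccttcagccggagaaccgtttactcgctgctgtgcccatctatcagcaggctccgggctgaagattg
ISG15: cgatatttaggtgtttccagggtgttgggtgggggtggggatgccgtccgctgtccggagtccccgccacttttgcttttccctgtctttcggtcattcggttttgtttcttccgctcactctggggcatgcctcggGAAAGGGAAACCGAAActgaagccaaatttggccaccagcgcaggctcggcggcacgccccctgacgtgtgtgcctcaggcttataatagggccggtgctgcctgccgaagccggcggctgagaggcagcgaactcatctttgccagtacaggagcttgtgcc
IFI27: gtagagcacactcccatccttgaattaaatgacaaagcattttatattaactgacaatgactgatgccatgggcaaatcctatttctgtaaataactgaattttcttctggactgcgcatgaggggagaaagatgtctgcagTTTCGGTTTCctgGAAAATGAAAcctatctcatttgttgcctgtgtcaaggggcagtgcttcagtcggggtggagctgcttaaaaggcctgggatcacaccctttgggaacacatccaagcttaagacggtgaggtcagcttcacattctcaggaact

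The following genes were also called for a high replicate 5. CCL2, the chemokine for monocytes, had 43.8, 24.08 and 85.8 TMM CPM (adjusted p = 6.95e-19 in edgeR's goodness-of-fit test with Benjamini-Hochberg adjustment), a call kept without each sample in turn. The matrix metalloproteinase MMP9 had 1.74, 2.78 and 8.57 TMM CPM and MMP10 had 1.93, 3.42 and 7.002 TMM CPM. MMP3, a stromelysin, had 73.8, 91.4 and 116 TMM CPM, and all 3 were lowest in replicate 3. TAP1, a peptide transporter for MHC class I, had 26.9, 29.4 and 44.1 TMM CPM, and TAPBP, which bridges it to MHC, 66.3, 62.2 and 97.2 TMM CPM. LGALS3BP, a secreted glycoprotein, had 38.6, 51.1 and 80.1 TMM CPM. IFITM3, an antiviral membrane protein, had 29.5, 30.4 and 52.4 TMM CPM. The other members of the cytokine list did not pass, such as CXCL8, with 16.8, 20.4 and 13.8 TMM CPM, and LIF, with 45.5, 38.4 and 52.0 TMM CPM.

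Several lists had most of their genes highest or lowest in the same sample, although few of these genes passed the test. Cholesterol synthesis was highest in replicate 5 in 19 of 20 genes, with a median log2 deviation of 0.27 from the mean of the samples. Of 15 p53 targets 13 were highest in replicate 5 with none called, CDKN1A having 273, 294 and 399 TMM CPM. Of 15 genes of the ATF4 stress response, ATF4 among them, 13 were lowest in replicate 5 and 11 highest in replicate 4, with CHAC1, a glutathione-degrading enzyme, and SLC7A11, the cystine transporter, called. CHAC1 had 16.5, 24.11 and 11.4 TMM CPM and SLC7A11 58.9, 43.3 and 33.4 TMM CPM. Replication genes were lowest in replicate 4 in 16 of 20 and mitosis genes in 12 of 18, with a median deviation of -0.08 and -0.06. Ribosomal proteins were highest in replicate 4 in 65 of 78, with a median deviation of 0.06. Over all genes tested, 6486 of 18339 were highest and 6429 lowest in replicate 4, 5958 were highest and 5836 lowest in replicate 5, and the median deviation was 0.00 in each sample.

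**Figure D5:**
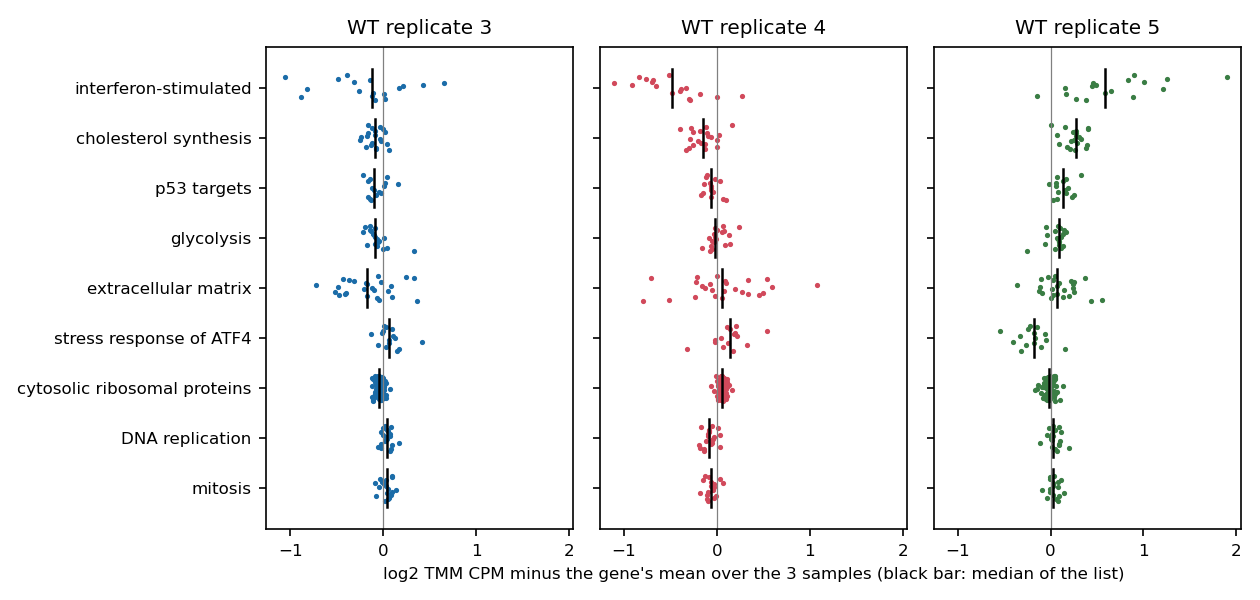
log2 TMM CPM of each tested gene minus its mean over the 3 WT samples (horizontal axis), for the members of the gene lists (rows) in replicates 3, 4 and 5 (panels), with the median of a list as a black bar. The interferon-stimulated row has medians of -0.12, -0.48 and 0.59, while ribosomal proteins stay near 0.

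The most even genes at 50 CPM or more were CDC42 and RHOA, GTPases of the actin cytoskeleton, EZR (ezrin), which links actin to the membrane, and the nuclear pore gene NUP133. CDC42 had 266, 266 and 266 TMM CPM, EZR 599.6, 600.3 and 599 TMM CPM and RHOA 428, 430.5 and 430.5 TMM CPM, with coefficients of variation of 0.110%, 0.149% and 0.271%. These genes were picked for their low spread, so the values are a description.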

How the data were processed

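RNA was sequenced from paired-end stranded libraries of the 3 untreated WT AID-DIvA samples. As deposited by the authors, each sample has 1 table with a whole-number count per gene, from STAR alignment to GRCh37 in the Roddy workflow and featureCounts (versions not given in the sources used here). The authors also deposited TPM over all genes, and a second TPM scaled to part of the genes (treated as a score), used for 1 alternative. Reverse-strand counts and the TPM over all genes were used here, and the ARID1A-KO tables were not used.

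Genes were classed by Ensembl ID from GENCODE lifted to GRCh37, which matched 55538 of 57820 genes. CPM was computed from reverse-strand counts. Genes passing filterByExpr in edgeR 4.0.16 (R 4.3.3) were normalized by TMM and tested with edgeR's goodness-of-fit test, with Benjamini-Hochberg adjustment over all tested genes at a threshold of 0.05, on 2 residual degrees of freedom, at the trended dispersion (replicate-variable) and at a dispersion of 0 (past counting error). No groups were compared, so the test asks only whether a gene varied more among samples than its abundance class. The fits were also run on simulated counts, drawn with the means, library sizes and trended dispersion of these data. Ratios use a floor of 3 counts of the total, which covers counting error only. Promoter windows, 250 bases before to 50 after the 5′-most start, came from the RefSeq table for GRCh38.p14. Other tools were Python 3.11.15, pandas 2.3.3, numpy 2.4.6 and, as an alternative, DESeq2 1.42.0.

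Named genes were the 20 highest by CPM and by TPM, the 5 highest of each class, up to 4 members at each end of a list, list members at 0 or called, the 20 called genes of largest ratio with a mean of at least 1 CPM, the 10 of lowest coefficient of variation at 50 CPM or more, the 5 largest rank differences each way among the first 500, and ARID1A and its partners. The text gives a selection of them. The members and the 39 gene lists were chosen with earlier results of these data known. Of the 634 list entries, 633 matched a gene of the tables. The genes near HR-prone and NHEJ-prone sites were named by the study. Some items are not reported here.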

Additional observations from a re-analysis of the deposited data

Results flagged for a closer look

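Counts on the forward strand, antisense to the annotated gene in these libraries, were outside the measurements of the report and came to 5.83% to 6.02% of the reverse-strand counts. They are given because they lay above the limit that a count of 0 allows. In 1773 genes every sample had at least 100 forward counts and more forward than reverse counts, and 71 of these had no annotated gene on the other strand overlapping them. LRRC37A16P, a pseudogene on GRCh37 chromosome 17 from 66121918 to 66148609, had 26.4 CPM on the forward strand (1790, 1894 and 1572 counts, against 0, 0 and 0 on the reverse strand). SPATA31C2 had 13.1 CPM on the forward strand (881, 1006 and 732 counts, against 0, 1 and 0 on the reverse strand), and RP11-564C4.6 had 12.4 CPM on the forward strand (922, 800 and 740 counts, against 0, 1 and 0 on the reverse strand). DPF3, a subunit of BAF complexes, had 15.7 CPM on the forward strand (910, 1344 and 893 counts, against 77, 30 and 34 on the reverse strand), with replicate 4 the highest. RP11-890B15.2 had 12.6 CPM on the forward strand (636, 1096 and 791 counts, against 419, 556 and 407 on the reverse strand). RP11-224O19.2 had 10.3 CPM on the forward strand (633, 751 and 658 counts, against 34, 42 and 33 on the reverse strand) and lies 557 bases from TGFB2, on the other strand. SLFNL1 had 8.11 CPM on the forward strand (523, 700 and 410 counts, against 10, 8 and 12 on the reverse strand), and the nearest gene on the other strand, CTPS1, lies 3034 bases away. The mitochondrial gene MT-ND5 had a mean of 1681 forward CPM, with 139738, 124754 and 73835 forward counts against 86629, 104484 and 60430 reverse counts. The source of these counts was not tested.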

How the results depend on the processing

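The number of replicate-variable genes depended on the samples and the rule more than on the normalization. It was 209 in the report and with RLE size factors, 135 at an adjusted p under 0.01, 133 where a ratio of at least 2 was also required and 125 as dispersion outliers of DESeq2, and leaving out 1 sample gave 49 (without replicate 4) to 134 (without replicate 5). The number past counting error, 10661, ranged from 6871 without replicate 4 to 7887 without replicate 5, with fewer samples to test on. The share of counts in the 100 highest genes was 17.3% without mitochondrial genes. The lowest correlation between samples was 0.986 with a pseudocount of 0.1, 0.991 over genes with at least 1 TPM in every sample and 0.993 with the unstranded TPM, and 0.9950 to 0.9956 when 1 sample was left out. The cause of these differences was not tested. The other 31 values computed kept within 1.5 times the reported count or within 1 SD of the reported value. Expressed genes numbered 16587 with TPM scaled to part of the genes, an alternative chosen after seeing the data. No paired analysis was possible because samples of 1 genotype were used and no groups were compared.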
